A study of Homo sapiens with 6 samples.

Results

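Choline enters cells through transporters that include members of the choline transporter-like family, the 5 proteins SLC44A1 to SLC44A5. It is built into phosphatidylcholine by the choline kinases CHKA and CHKB, the CTP:phosphocholine transferase PCYT1A and the phosphotransferases CHPT1 and CEPT1. The messenger RNA of these 10 genes was examined in the established human pancreatic cancer line AsPC-1, with and without forced expression of MMP28, a secreted metalloproteinase. All 10 were found by symbol among the 58735 genes of the deposited table. The genes were chosen by their function in choline metabolism, with the fold changes of OE-MMP28 over Vector in these same libraries already known, so the members' values are a description and no p-value is given for them. The control libraries (n = 3) are titled NC and are taken here as the study's Vector cells, which by its figure legends received an empty lentivirus. OE-MMP28 cells (n = 3) received a lentivirus carrying MMP28 cDNA. The labels give Vector cells as wild type and OE-MMP28 cells as MMP28 overexpression, and both groups share the cell line. A label of wild type names no infection. If the controls were not infected, infection and selection cannot be told apart from MMP28. According to the study's methods the overexpression vector also carried GFP and puromycin resistance, stably infected cells were selected in puromycin, and no step of single-cell cloning is described. The labels do not say whether the 3 libraries of a group came from separate cultures. The p-values below therefore measure the spread between these libraries, which may be technical.

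Phosphatidylcholine is the most abundant phospholipid of mammalian membranes, and most cells make it by the CDP-choline (Kennedy) pathway. Choline is taken up, phosphorylated by a kinase, activated to CDP-choline by PCYT1A, which is usually the slow step, and joined to diacylglycerol by a phosphotransferase. The same choline also feeds sphingomyelin, acetylcholine and, after oxidation, betaine. Raised phosphocholine and raised CHKA are well known in epithelial cancers.

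The 6 libraries held 13633249 to 16691458 counts assigned to genes, and mitochondrial genes took 8.80% to 14.8% of them. A gene with no read could have had up to 3 counts, which is 0.180 to 0.220 CPM (counts scaled to a common library total). MMP28 (ENSG00000271447, chromosome 17) was measured at 5.17, 9.11 and 8.43 FPKM (fragments per kilobase of exon and fixed library total) in Vector and at 13.1, 13.9 and 15.1 FPKM in OE-MMP28. These are 7.57 ± 2.11 and 14 ± 1.01 FPKM (SD, n = 3 each), and the groups did not overlap. The edgeR log2 fold change was 0.90 (SE 0.19, Benjamini-Hochberg adjusted p = 0.00226 over 15319 genes), and reads of the transgene were not told apart from those of the cells' own MMP28. The 5 epithelial markers (EPCAM, KRT8, KRT18, KRT19 and CDH1) summed to 2578 to 3518 FPKM in Vector and 3516 to 4303 FPKM in OE-MMP28, so all 5 defining markers of the labelled epithelial cell type were expressed. The keratins carried this sum, and its members differed: KRT19 was at 624 ± 34.1 FPKM in Vector and 1012 ± 140 FPKM in OE-MMP28, CDH1 at 20.3 ± 2.61 and 13.4 ± 2.15 FPKM, both without overlap, while EPCAM, KRT8 and KRT18 overlapped. Fibroblast markers summed to 33.9 to 40.9 and 39.3 to 57.0 FPKM, with 1 of 4 at 1 FPKM or more, namely LUM. Leukocyte markers summed to 1.01 to 1.14 and 0.653 to 0.860 FPKM with CD3E at 0, and endothelial markers to 0.0441 to 0.170 and 0.179 to 0.293 FPKM. The part of these shifts in the results below was not tested.

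The 5 transporters all had lower fitted levels in OE-MMP28, whereas the enzymes were divided. SLC44A4, SLC44A3 and SLC44A5 were lower, with log2 fold changes of −5.14, −0.85 and −0.77, and CHPT1 and CHKA were higher, at 1.13 and 0.64. SLC44A1, SLC44A2, CHKB, PCYT1A and CEPT1 did not pass the test. All 10 genes passed the filter on low counts. With an adjusted p under 0.05 in edgeR, 2 of 10 members were higher and 3 of 10 lower. Among all genes tested these shares were 11.7% and 11.6%, and since this contrast was known when the list was made, nothing is read from the members' counts (5 of 10 in either direction, against 23.4%). Past a log2 fold change of 1 as well, 1 of 10 members was higher (CHPT1, against 3.06% of all genes) and 1 of 10 lower (SLC44A4, against 4.32%). The groups did not overlap for 7 of 10 members, against 38.1% of all genes. The median log2 fold change was −0.77 over the transporters, 0.29 over the enzymes, −0.26 over all 10 members and 0.014 over all genes tested. Left out singly, Vector replicate 2 or OE-MMP28 replicate 3 turned SLC44A1 to 0.0068 and 0.038, and leaving out Vector replicate 2 turned SLC44A2 to 0.030, so the common direction of the transporters rests on these libraries. As these are bulk samples, fewer cells of a kind and less RNA in each cell cannot be told apart.

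**Figure D1:**
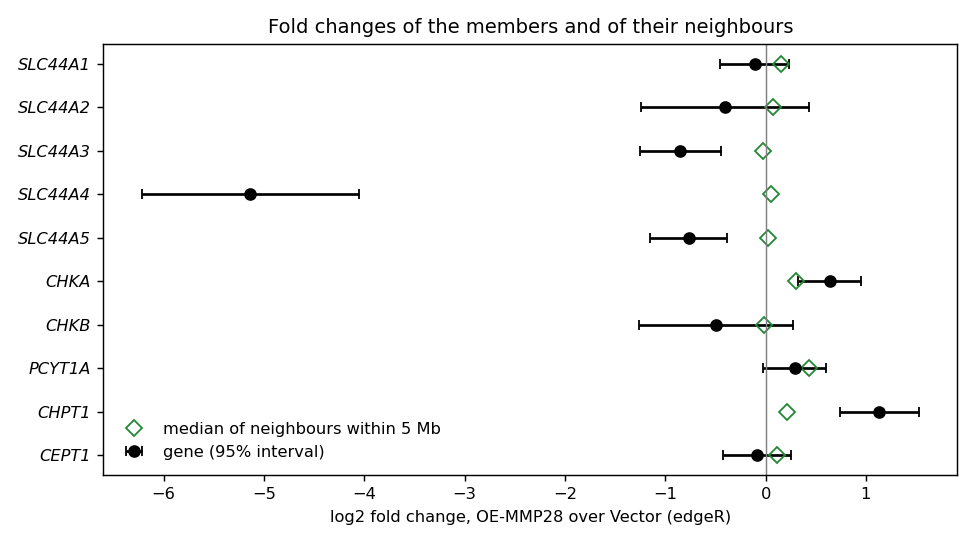
Log2 fold change of OE-MMP28 over Vector (edgeR, horizontal axis) for the 5 transporters and the 5 enzymes, with 95% intervals as bars, and open diamonds are the median over the tested genes within 5 Mb on either side. The diamonds lie between −0.026 and 0.43. SLC44A4 stands far to the left at −5.14, and CHPT1 is the highest at 1.13.

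The starts of these genes differ in base composition, and 4 stretches are shown: those of the 3 transporters SLC44A4, SLC44A5 and SLC44A1, which span the transporter fold changes, and that of CHPT1, the enzyme with the largest difference. They come from RefSeq (GRCh38.p14), run 5′ to 3′ on the gene's strand within the 250 bases before its start, and leave out bases that the annotation counts as exon. Capitals mark GGGCGG or TATAAA on either strand. The bases left out before the SLC44A4 start hold 2 matches to GGGCGG, which its shown stretch lacks.
SLC44A4, chr6:31879047-31879247, minus strand: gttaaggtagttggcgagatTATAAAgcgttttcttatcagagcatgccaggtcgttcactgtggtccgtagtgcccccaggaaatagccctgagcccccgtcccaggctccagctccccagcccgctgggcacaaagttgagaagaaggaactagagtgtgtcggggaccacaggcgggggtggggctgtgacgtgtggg
SLC44A5, chr1:75611117-75611364, minus strand: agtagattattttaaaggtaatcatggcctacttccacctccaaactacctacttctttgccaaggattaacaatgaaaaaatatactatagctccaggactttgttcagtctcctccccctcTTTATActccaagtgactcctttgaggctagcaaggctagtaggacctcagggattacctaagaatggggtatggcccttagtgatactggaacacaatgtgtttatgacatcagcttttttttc
SLC44A1, chr9:105244401-105244621, plus strand: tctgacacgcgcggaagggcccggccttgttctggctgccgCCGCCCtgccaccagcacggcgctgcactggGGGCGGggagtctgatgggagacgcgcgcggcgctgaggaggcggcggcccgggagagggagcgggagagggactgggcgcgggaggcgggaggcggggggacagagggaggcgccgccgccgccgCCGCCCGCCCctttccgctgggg
CHPT1, chr12:101697390-101697626, plus strand: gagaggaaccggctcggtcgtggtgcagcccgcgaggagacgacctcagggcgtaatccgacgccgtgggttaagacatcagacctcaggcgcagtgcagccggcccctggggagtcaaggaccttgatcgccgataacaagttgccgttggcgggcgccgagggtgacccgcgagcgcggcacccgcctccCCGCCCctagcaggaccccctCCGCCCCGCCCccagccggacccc
In the full 250 bases, SLC44A5 had 40.8% G and C and 0 CpG, SLC44A4 had 61.2% and 12 CpG, CHPT1 had 72% and 28 CpG, and SLC44A1 had 77.6% and 30 CpG. The medians over 35116 promoters were 58.0% and 11 CpG. SLC44A5 thus lay below, and SLC44A1 and CHPT1 above, the middle of all promoters. SLC44A3, which was also lower in OE-MMP28 but is not shown, had 78% G and C and 35 CpG before its first start. Before its other start it lay below both medians, with 6 CpG. The other start of SLC44A4 had 64.4% and 5 CpG. A link between base composition and the direction of the fold changes was not tested.

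RefSeq gave 13 starts for 9 members, and CHKA was not matched. The GC box letters GGGCGG, searched on both strands like the others, stood before 8 of the 13 starts, against 42.6% of all promoters. CCAAT stood before 3 of 13 (32.0% of all promoters), and TATAAA also before 3 of 13 (10.7%). The palindromic E-box CACGTG was before 0 of 13 (6.34%). TATAAA stood 230 bases before the SLC44A4 start, 127 before that of SLC44A5 and, at its other start, 82 before that of SLC44A3. In SLC44A5 and SLC44A3 it was on the reverse strand. All are transporters, but the enzymes have fewer starts here and CHKA has none, so nothing is read from this split. A match describes these letters and is no evidence of a bound factor.

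SLC44A4 (ENSG00000204385, chromosome 6, 31863192 to 31879046, minus strand), a family member known for uptake of thiamine pyrophosphate and linked to acetylcholine synthesis outside neurons, differed most. Its counts were 78, 294 and 168 in Vector and 11, 2 and 4 in OE-MMP28, and its FPKM 1.51, 6.45 and 3.38 against 0.206, 0.0374 and 0.0705. Every OE-MMP28 library lay below the lowest Vector library, although the Vector libraries themselves spread widely. The log2 fold change was −5.14 (SE 0.52, 95% interval −6.22 to −4.06), a 35.2-fold lower fitted level and the 6th largest fall among 15319 genes. It was −4.52 without Vector replicate 2, where the gene was highest, and −6.05 without OE-MMP28 replicate 1. OE-MMP28 replicate 2 had 2 counts, under the limit of 3 that a count of 0 allows, so its level there is poorly measured.

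SLC44A3 (ENSG00000143036, chromosome 1, 94820342 to 94895246, plus strand) is a little studied member of the family. It was measured at 5.33, 8.18 and 7.21 FPKM in Vector and at 3.68, 3.80 and 3.89 FPKM in OE-MMP28. The OE-MMP28 libraries lay close together and below all Vector libraries, with a log2 fold change of −0.85 (SE 0.19, 95% interval −1.26 to −0.45). SLC44A5 (ENSG00000137968, chromosome 1, 75202131 to 75611116, minus strand), likewise little studied, was at 8.72, 14.0 and 13.0 FPKM in Vector and at 8.34, 6.64 and 5.93 FPKM in OE-MMP28. Its groups did not overlap but came close, Vector replicate 1 being only just above OE-MMP28 replicate 1. The log2 fold change was −0.77 (SE 0.18, 95% interval −1.15 to −0.38).

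SLC44A1 (ENSG00000070214, chromosome 9, 105244622 to 105439171, plus strand), the broadly expressed choline transporter of plasma membrane and mitochondria, was at 10.3, 13.1 and 10.5 FPKM in Vector. In OE-MMP28 it was at 12.4, 10.7 and 8.16 FPKM. The groups overlapped, and the log2 fold change of −0.11 (SE 0.16) had a 95% interval of −0.45 to 0.23. SLC44A2 (ENSG00000129353, chromosome 19, 10602457 to 10644559, plus strand), known as the carrier of a neutrophil antigen and as a mitochondrial choline transporter of platelets, was barely expressed. Its counts were 18, 34 and 18 in Vector and 16, 21 and 22 in OE-MMP28, at 0.194 to 0.482 FPKM over the 6 libraries. The groups overlapped, and the log2 fold change of −0.41 (SE 0.40) had a 95% interval of −1.25 to 0.43, wide enough to hold a change in either direction.

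Within the Vector group the transporters shared an order, in libraries whose values were already known when the genes were chosen. On scaled counts all 5 were highest in replicate 2 and lowest in replicate 1, as were 3 of 5 enzymes and 21.6% of all 15319 genes tested. MMP28 was also lowest in Vector replicate 1 and highest in replicate 2. These 3 points are too few for a correlation, and the members of one library share its RNA, so nothing is read from this order.

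**Figure D2:**
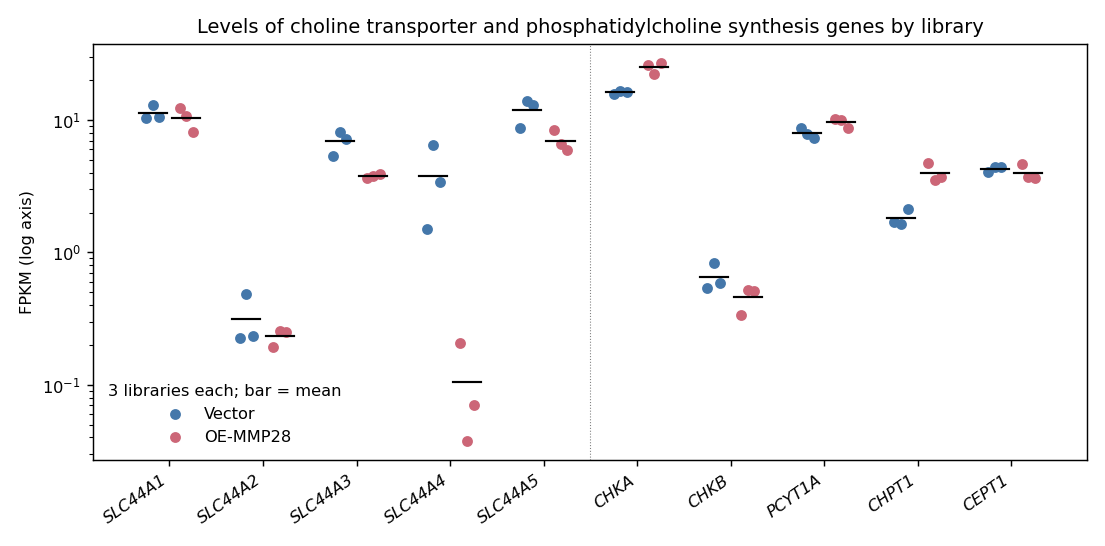
FPKM of each of the 10 genes in the 3 Vector and the 3 OE-MMP28 libraries (log axis, one point per library), with the group means as bars. The SLC44A4 points of OE-MMP28, at 0.0374 to 0.206 FPKM, lie far below its Vector points, while SLC44A1 and CEPT1 overlap between the groups.

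CHKA (ENSG00000110721, chromosome 11, 68052859 to 68121444, minus strand), the choline kinase that is raised in many tumours, was the most abundant member per length in both groups. It was at 15.7, 16.6 and 16.3 FPKM in Vector and at 25.9, 22.1 and 27.0 FPKM in OE-MMP28. All OE-MMP28 libraries were above all Vector libraries, with a log2 fold change of 0.64 (SE 0.15, 95% interval 0.33 to 0.95). The 211 tested genes within 5 Mb of CHKA had a median log2 fold change of 0.31. With that median as an offset CHKA was at 0.33 and no longer past the threshold. An antisense gene, AP002807.1, covers 16.3% of its exon length and had 34 to 72 counts, and the strand setting of the counting is not given in the sources used here.

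CHKB (ENSG00000100288, chromosome 22, 50578949 to 50601455, minus strand), the other choline kinase, known from a muscular dystrophy caused by its loss, was low. Its counts were 25, 34 and 26 in Vector and 16, 25 and 26 in OE-MMP28, or 0.541, 0.833 and 0.584 against 0.335, 0.522 and 0.512 FPKM. The FPKM values did not overlap, but the log2 fold change of −0.49 (SE 0.37) had a 95% interval of −1.26 to 0.27. The readthrough gene CHKB-CPT1B covers 72.5% of its exon length on the same strand, so reads may have been split between them and the level of CHKB is uncertain.

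PCYT1A (ENSG00000161217, chromosome 3, 196214222 to 196287957, minus strand), which makes CDP-choline, was at 8.65, 7.90 and 7.30 FPKM in Vector and at 10.2, 9.97 and 8.77 FPKM in OE-MMP28. The groups did not overlap, yet the gene did not pass the test, with a log2 fold change of 0.29 (SE 0.15, 95% interval −0.022 to 0.60). The 59 tested genes within 5 Mb had a median of 0.43, and relative to them PCYT1A was at −0.14. The antisense gene SLC51A covers 4.88% of the exon length of PCYT1A and had 18 to 42 counts. On the same strand AC069257.3 covers 4.02% and had 0 counts.

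CHPT1 (ENSG00000111666, chromosome 12, 101696947 to 101744140, plus strand) is the phosphotransferase of the Golgi that uses CDP-choline. Its counts were 157, 133 and 188 in Vector and 448, 336 and 373 in OE-MMP28, and its FPKM 1.71, 1.64 and 2.12 against 4.72, 3.53 and 3.69. The groups were well apart, with a log2 fold change of 1.13 (SE 0.19, 95% interval 0.74 to 1.53), a 2.19-fold higher fitted level. The antisense gene SYCP3 covers 9.43% of the exon length of CHPT1 and had 0 to 5 counts. CEPT1 (ENSG00000134255, chromosome 1, 111139627 to 111185102, plus strand), the enzyme of the endoplasmic reticulum that takes both CDP-choline and CDP-ethanolamine, was at 4.03, 4.42 and 4.40 FPKM in Vector. In OE-MMP28 it was at 4.68, 3.68 and 3.67 FPKM. Its groups overlapped, and its log2 fold change was −0.086 (SE 0.16, 95% interval −0.42 to 0.25). The antisense gene DRAM2 covers 3.42% of the exon length of CEPT1 and had 485 to 661 counts, so shared reads are possible. The antisense genes AL355816.1 and AL355816.2 cover 1.40% and 7.69% and had 0 counts.

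With limma on log2(FPKM + 1) and no filter, CHKA alone of the 5 members stayed past the threshold, and the other log2 fold changes kept their direction, at −1.98 for SLC44A4, −0.71 for SLC44A3, −0.68 for SLC44A5 and 0.81 for CHPT1. SLC44A5 also missed it in limma with the filter, at −0.68, or −0.75 with a pseudocount of 0.1.

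The order of the members by FPKM, which is per length, differed between the groups. In Vector the means ran from CHKA at 16.2 ± 0.485 FPKM (SD, n = 3) through SLC44A5 at 11.9 ± 2.82, SLC44A1 at 11.3 ± 1.53, PCYT1A at 7.95 ± 0.677, SLC44A3 at 6.91 ± 1.44 and CEPT1 at 4.28 ± 0.221. Below these were SLC44A4 at 3.78 ± 2.49, CHPT1 at 1.82 ± 0.262, CHKB at 0.653 ± 0.157 and SLC44A2 at 0.314 ± 0.146 FPKM. Of the neighbours in this order, SLC44A5 and SLC44A1, PCYT1A and SLC44A3, CEPT1 and SLC44A4, and SLC44A4 and CHPT1 had overlapping libraries. In OE-MMP28 CHKA was again first at 25.0 ± 2.59 FPKM, followed by SLC44A1 at 10.4 ± 2.12, PCYT1A at 9.65 ± 0.772, SLC44A5 at 6.97 ± 1.24, CEPT1 at 4.01 ± 0.582 and CHPT1 at 3.98 ± 0.644. SLC44A3 at 3.79 ± 0.107, CHKB at 0.456 ± 0.105, SLC44A2 at 0.233 ± 0.0337 and SLC44A4 at 0.105 ± 0.0895 FPKM were lowest. There SLC44A1 and PCYT1A, CEPT1 and CHPT1, CHPT1 and SLC44A3, and SLC44A2 and SLC44A4 overlapped.

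The makeup of the transporter family shifted. Summed over the 5 SLC44A genes, FPKM was 34.2 ± 8.05 in Vector and 21.5 ± 3.24 in OE-MMP28, without overlap. SLC44A4 made up 5.80%, 15.3% and 9.83% of that sum in Vector and 0.832%, 0.174% and 0.385% in OE-MMP28. SLC44A1 made up 33.7 ± 5.02% and 48.2 ± 3.09% (SD, n = 3 each), again without overlap, though its own FPKM overlapped between the groups. The shares of SLC44A5 (34.8 ± 2.61% and 32.3 ± 1.38%) and SLC44A3 (20.3 ± 0.821% and 17.9 ± 3.22%) overlapped. Per length, SLC44A1 and SLC44A5 were thus near each other in Vector, and SLC44A1 led in OE-MMP28. In counts, which are not corrected for length, SLC44A1 led in both groups (56.2 ± 5.15% and 69.0 ± 2.23%), the shares of SLC44A5 (30.3 ± 3.24% and 24.0 ± 1.24%) and SLC44A3 (8.01 ± 0.464% and 6.09 ± 1.30%) did not overlap, and the family's summed counts did, at 3089 to 3989 in Vector and 2514 to 3404 in OE-MMP28. The share of SLC44A4 fell by 9.84 percentage points in FPKM and by 4.68 points in counts.

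The paired enzymes also changed in proportion. CHPT1 was 29.8%, 27.0% and 32.6% of the summed phosphotransferase FPKM in Vector and 50.2%, 49.0% and 50.2% in OE-MMP28. The ratio of CHPT1 to CEPT1 was 0.426 ± 0.0564 and 0.991 ± 0.0280 (SD, n = 3 each), so the transcripts were at about equal FPKM in OE-MMP28. The phosphotransferase sum was 6.11 ± 0.393 FPKM in Vector and 7.99 ± 1.22 FPKM in OE-MMP28. CHKA was 96.1 ± 0.794% of the kinase FPKM in Vector and 98.2 ± 0.518% in OE-MMP28, so nearly all kinase transcript came from CHKA in both groups. The 5 enzymes together summed to 30.9 ± 0.445 FPKM in Vector and 43.1 ± 3.08 FPKM in OE-MMP28, in the opposite direction to the transporters. CHKA, at 16.2 FPKM in Vector and 25.0 FPKM in OE-MMP28, made up most of this rise. CHKB and CEPT1 had lower fitted levels, and PCYT1A did not pass the test.

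**Figure D3:**
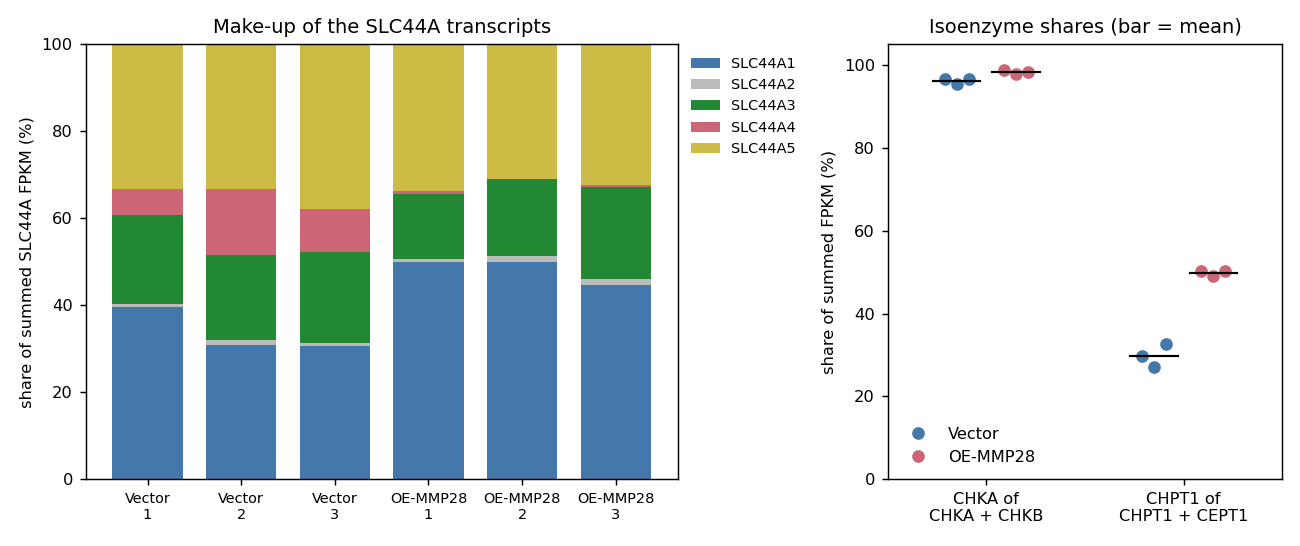
Left, share of each SLC44A gene in the family's summed FPKM in each of the 6 libraries (percent, stacked bars from 0). Right, share of CHKA in the kinase FPKM and of CHPT1 in the phosphotransferase FPKM, one point per library with group means as bars. The SLC44A4 segment, 5.80% to 15.3% in Vector, is below 1% in the OE-MMP28 libraries, and CHPT1 lies at 27.0% to 32.6% in Vector and at 49.0% to 50.2% in OE-MMP28.

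Beyond the members, 57 other genes of choline and phosphatidylcholine metabolism were placed in 8 lists. Of these, 42 passed the filter, 4 were higher (9.52% of those tested, against 11.7% of all genes) and 7 were lower (16.7%, against 11.6%) in edgeR with Benjamini-Hochberg adjustment. The remaining 31 did not pass the test, and 15 were too low to test, 7 of them at 0 in all libraries. These lists were also drawn up with earlier results of these data known, so their counts are a description and the p-values of single genes below are not independent evidence. The counts of single lists below stand beside the same shares of all genes, 11.7% higher and 11.6% lower, and nothing is read from them.

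Genes of phosphatidylcholine breakdown and choline oxidation came next. PLA2G4A, the cytosolic phospholipase that frees arachidonic acid from phosphatidylcholine, had 4, 5 and 2 counts in Vector and 48, 32 and 54 in OE-MMP28, and rose by a log2 fold change of 3.41 (SE 0.47, edgeR adjusted p = 3.3e-05). It passed in 18 of 18 alternatives, CHDH in 15 of the 16 that gave it an adjusted p, and PNPLA8, the other breakdown gene called, in 10 of 18. CHDH, the mitochondrial enzyme that oxidises choline toward betaine, had 13, 5 and 3 counts in Vector and 28, 44 and 26 in OE-MMP28, and rose by 2.07 (SE 0.48, edgeR adjusted p = 0.00406). The groups of both genes did not overlap. Both were low in Vector, where the 2 counts of PLA2G4A and 3 of CHDH in replicate 3 do not exceed the limit of 3. CHDH was also low in OE-MMP28, at 0.199 to 0.358 FPKM. The size of both rises is thus poorly measured. Of the breakdown list 1 of 10 tested genes was higher and 1 of 10 lower, the latter being PNPLA8, a calcium-independent phospholipase, at −0.61 (edgeR adjusted p = 0.0218). Of the choline oxidation list 1 of 2 tested genes, CHDH, was higher, the other was at −0.016, and 4 were too low to test. Without Vector replicate 1 CHDH was at 2.81 and without Vector replicate 3 at 1.71.

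Among the other transporters 1 of 4 tested genes was lower: FLVCR2, described as a choline transporter of the blood-brain barrier, had 53, 59 and 53 counts in Vector and 16, 25 and 32 in OE-MMP28, a log2 fold change of −1.32 (SE 0.32, edgeR adjusted p = 0.00581). ACHE, which splits acetylcholine and was the 1 tested gene of its list, was at 1.40, 2.44 and 1.11 FPKM in Vector and 0.518, 0.617 and 0.801 FPKM in OE-MMP28. Its log2 fold change was −1.33 (SE 0.31, edgeR adjusted p = 0.00437), and −0.95 without Vector replicate 2. Both genes were lower in every OE-MMP28 library than in any Vector library. FLVCR2 and ACHE each passed in 15 of 18 alternatives and missed the threshold in the limma fits on FPKM, with adjusted p up to 0.116 and 0.181. FLVCR2 was itself low, at 0.775 ± 0.0989 FPKM in Vector and 0.305 ± 0.0917 FPKM in OE-MMP28. The related FLVCR1, also a choline transporter, was more abundant at 4.69 ± 0.398 and 4.53 ± 0.659 FPKM (SD, n = 3 each), its groups overlapped, and its log2 fold change was −0.040 (SE 0.17, edgeR adjusted p = 0.892).

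Of the genes for diacylglycerol supply and acyl remodelling, 3 of 7 tested were lower, against 11.6% of all genes. These were LPIN1, a phosphatidate phosphatase that makes diacylglycerol, at −0.72 (edgeR adjusted p = 0.00450), LPCAT4, a lysophospholipid acyltransferase, at −0.71 (edgeR adjusted p = 0.0157), and MBOAT2, another acyltransferase, at −0.58 (edgeR adjusted p = 0.0143). Relative to the genes within 5 Mb, LPIN1 was at −0.34 (adjusted p = 0.196) and MBOAT2 at −0.19 (adjusted p = 0.472), both short of the threshold. With this offset 4 genes of the 8 lists were lower, against 7 without it, so these were not the only calls lost. In the phosphatidylethanolamine list, 1 of 8 tested genes was lower, PTDSS2, a phosphatidylserine synthase, at −0.52 (edgeR adjusted p = 0.0310). In the sphingomyelin list, 2 of 7 were higher, against 11.7% of all genes. These were SMPD1, the acid sphingomyelinase, at 0.61 (edgeR adjusted p = 0.0346), and SMPD3, a neutral sphingomyelinase, at 0.86 (edgeR adjusted p = 0.0377). The FPKM of SMPD3 overlapped between the groups. Of 18 alternatives LPIN1 passed in 16, LPCAT4 in 13, MBOAT2 in 12, PTDSS2 in 10, SMPD3 in 9 and SMPD1 in 8. Of the thiamine list, which bears on the other substrate of SLC44A4, 0 of 3 tested genes passed in edgeR, DESeq2 or limma voom, and 0 did at an unadjusted p under 0.05. Their log2 fold changes were 0.32 to 0.39.

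The calls of 6 of these genes were lost when single libraries were left out, each for 2 to 4 different libraries. LPCAT4 was at −0.38 without Vector replicate 2 and at −0.64 without OE-MMP28 replicate 1, and MBOAT2 at −0.59 and −0.44 without OE-MMP28 replicates 2 and 3, none of them past the threshold. PTDSS2 missed it without Vector replicate 2 or 3 or OE-MMP28 replicate 1 or 2, at −0.55 to −0.43. PNPLA8 missed it without Vector replicate 1 or 3 or OE-MMP28 replicate 2 or 3, at −0.62 to −0.45. SMPD1 did so without Vector replicate 2 or 3 or OE-MMP28 replicate 2 or 3, at 0.52 to 0.59, and SMPD3 without Vector replicate 1 or 3 or OE-MMP28 replicate 2 or 3, at 0.63 to 0.88.

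**Figure D4:**
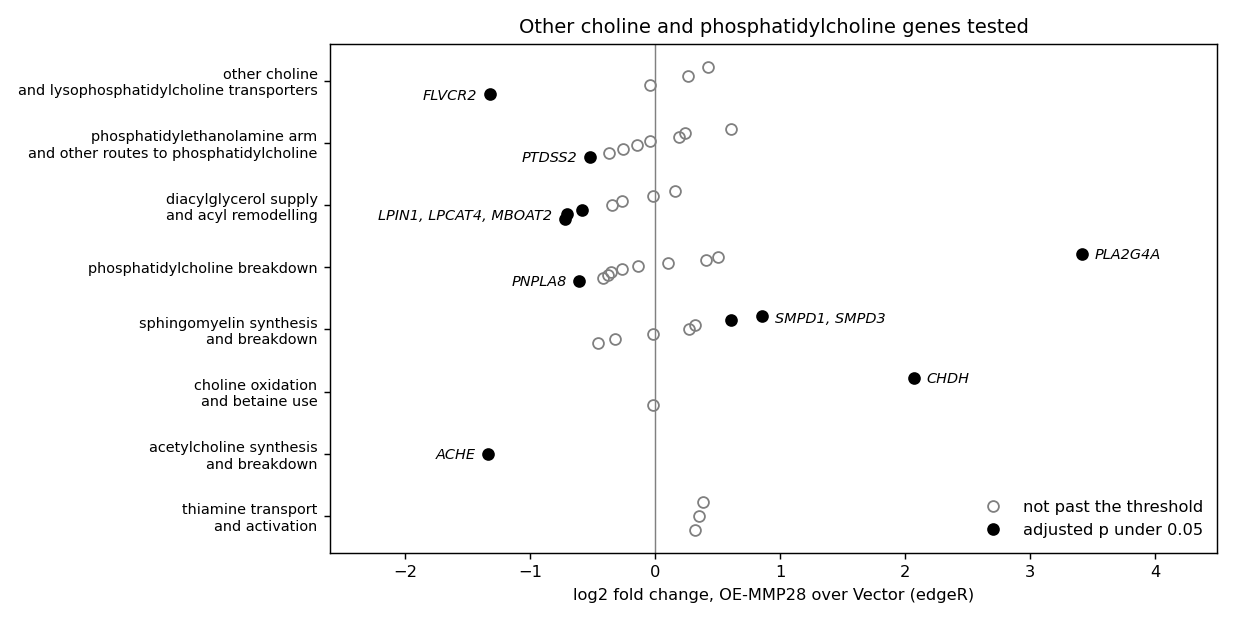
Log2 fold change of OE-MMP28 over Vector (edgeR, horizontal axis) for the 42 tested genes of the 8 further lists, filled where the adjusted p was under 0.05. The 4 filled points on the right are PLA2G4A, CHDH, SMPD1 and SMPD3, and 7 lie on the left.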

How the data were processed

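RNA of 3 Vector and 3 OE-MMP28 libraries of AsPC-1 cells was sequenced after preparation with an NEBNext Ultra kit. The authors deposited whole-number counts per gene and FPKM, which they computed from those counts, each library scaled by a single total. The submitters' processing notes name HISAT2 2.0.5 and featureCounts 1.5.0-p3. Gene identifiers and positions matched GENCODE release 29 (GRCh38). The authors' own comparison columns (group means, fold changes, p-values) were not used. Groups came from the labels.

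Counts were tested with edgeR 4.0.16 in R 4.3.3 (quasi-likelihood test, TMM scaling, filterByExpr with a minimum count of 10 and total of 15, Benjamini-Hochberg adjustment over 15319 genes, threshold 0.05). DESeq2 1.42.0 and limma 3.58.1 (on counts and on log2(FPKM + 1), mean FPKM of at least 0.5) were alternatives, as were other scalings and filters, a replicate block, leaving out mitochondrial genes or each library, and an offset for the median of genes within 5 Mb. Shares and ratios were computed from FPKM in each library. The fits were run on simulated counts with 200 changed genes, to check the code. The simulation had a set dispersion and far fewer changed genes than the 3579 called here. It therefore gives no error rate for these data.

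The members and lists were chosen with earlier results of these data known. Named were MMP28, all members, every listed gene with an adjusted p under 0.05, and genes overlapping a member. Of the 57 listed genes, 1 was matched by its older symbol. Depth was 13633249 to 16691458 counts per library, and limits from counts cover counting error only.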

Additional observations from a re-analysis of the deposited data

How the results depend on the processing

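Over 18 alternatives the number of members past the threshold was 2 higher and 3 lower, also in each fit without 1 library (ranges 2 to 2 and 3 to 3), except that limma on log2(FPKM + 1) without a filter gave 1 higher and 0 lower (3 lower at an unadjusted p under 0.05), limma on log2(FPKM + 1) or log2(FPKM + 0.1) with the filter gave 2 lower, and the local median offset gave 1 higher. Among the members' log2 fold changes, SLC44A1 turned to 0.0068 and 0.038 without Vector replicate 2 and OE-MMP28 replicate 3, SLC44A2 to 0.030 without Vector replicate 2, and PCYT1A to −0.14 with the local median offset. Without 1 library SLC44A1 ranged from −0.26 to 0.038 and SLC44A2 from −0.60 to 0.030. The counts of other pathway genes depended more on the setting. Against 4 higher, the number was 2 with upper-quartile scaling, 1 in limma on log2(FPKM + 1), 1 with a pseudocount of 0.1, 1 without a filter, and 2 to 5 without 1 library. Against 7 lower, the same limma fits gave 1, 1 and 0 (12 at an unadjusted p under 0.05), the local median offset 4, and leaving out 1 library 4 to 6. MMP28 ranged from 0.69 to 1.05 without 1 library, and was 0.84 (adjusted p = 0.0903) in limma without a filter. The drop in the SLC44A4 share was −4.68 points from counts against −9.84 from FPKM, and −12.1 to −7.35 without 1 library. Causes were not tested.

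The replicate numbers are shared by the groups. Deviations of same-numbered libraries had r = 0.017, 0.0080 and −0.088, and those of differently numbered ones ran from −0.15 to 0.17. As deviations from means of 3 libraries these values are tied together. They cannot decide whether a number marks a shared culture or batch. With the replicate block 2 members were higher and 3 lower, 5 pathway genes higher and 7 lower, MMP28 was at 0.93, and 1844 genes were higher and 1841 lower in all, against 1795 and 1784 without it.

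At 3 libraries a group and these depths, SLC44A2, CHKB and SLC44A4 in OE-MMP28 rest on few counts, and changes inside their intervals could not be resolved. PLA2G4A in Vector and CHDH in both groups also rest on few counts.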
